A study of Mus musculus with 10 samples.

Results

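Leukocyte adhesion molecules and integrins are described here by 9 genes, chosen by name from the deposited gene table: Vcam1, Icam1, Sele, Selp, Selplg, Itga4, Itgal, Itgb2 and Cd44. All 9 were found, each as 1 row, among the 34449 genes of the table. RNA had been sequenced from tumors of 9-week-old BALB/C mice in 10 libraries, 5 labelled control and 5 labelled therapy. The methods give the treatment as “BC@Z-M + L” and describe the tumors as grown from 4T1 cells, a mouse breast carcinoma line, injected under the flank skin of female mice. BC@Z-M is a zinc-based ZIF-8 carrier loaded with the hypoxia-responsive probe BN-O and the vascular disrupting agent CA4P and coated with membrane of M1-polarised RAW264.7 macrophages, and L is near-infrared laser light. The coating was meant to hold the drugs in and to steer the carrier to tumors, the latter through the α4β1 integrin of the membrane and VCAM-1 on tumor cells, to which Itga4 and Vcam1 contribute. The series description speaks of triplicates, whereas 5 libraries a group are labelled, and the sources do not say whether each library came from its own mouse, what the control tumors received in place of the carrier, or how long after the last treatment the tumors were taken. The p-values below therefore measure only the spread between these libraries.

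Leukocytes leave the blood in steps that use different adhesion molecules. Selectins on activated endothelium (P-selectin, Selp, and E-selectin, Sele) catch flowing cells through glycosylated ligands such as PSGL-1 (Selplg) and CD44 (Cd44), and the cells roll. Chemokine signals then activate integrins, and the cells arrest when LFA-1 (Itgal with Itgb2) binds ICAM-1 (Icam1) and VLA-4 (Itga4 with Itgb1) binds VCAM-1 (Vcam1). Inflammatory cytokines raise the endothelial members through NF-kappaB. ICAM-1, VCAM-1 and CD44 are also made by macrophages, stromal cells and carcinoma cells, so a tumor's RNA holds several sources of each, and in bulk RNA fewer cells of a type and less RNA per cell cannot be told apart.

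Total estimated counts were 53411182 to 65263003 in the control libraries and 53446143 to 77510631 in the therapy libraries. FPKM, a fragment number divided by gene length and library size, was the unit of all levels below. The tumor label fitted its markers, since 10 epithelial genes such as Krt8 and Epcam summed to 1900 to 2380 FPKM in control and 1700 to 2740 in therapy. The treatment has no gene of its own, so no transcript could check the group labels. The therapy 2 library stood apart before any adhesion gene was considered: its keratinocyte genes summed to 280 FPKM, against 3.38 to 49.2 in the other 9 libraries, and its T cell genes to 33.4, against 7.04 to 20.4. The therapy 5 library had the highest summed neutrophil genes, at 1150 FPKM, and the highest summed epithelial genes. The difference of each of the 9 genes was therefore also computed with every library left out in turn. Differences of ratios and of other genes are given without this check.

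The 9 genes spanned a wide range of levels. By mean FPKM over the 10 libraries the order was Cd44 with 90.9, Itgb2 with 34.3, Selplg with 6.88, Vcam1 with 5.43, Itgal with 3.55, Icam1 with 3.02, Selp with 2.15, Itga4 with 0.784 and Sele with 0.178. Cd44 lay above Itgb2, Itgb2 above Selplg, and Itga4 above Sele with no overlap between their ranges over all libraries. The neighbours between Selplg and Itga4 had overlapping ranges. Within single libraries Vcam1 exceeded Itgal, and Selp exceeded Itga4, in 10 of 10, whereas Selplg exceeded Vcam1, Itgal exceeded Icam1, and Icam1 exceeded Selp in 8 of 10. Sele and Itga4 were below the mean of 1 FPKM asked for in the main fit and were tested by permutation, so 7 of the 9 genes entered that fit.

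**Figure D1:**
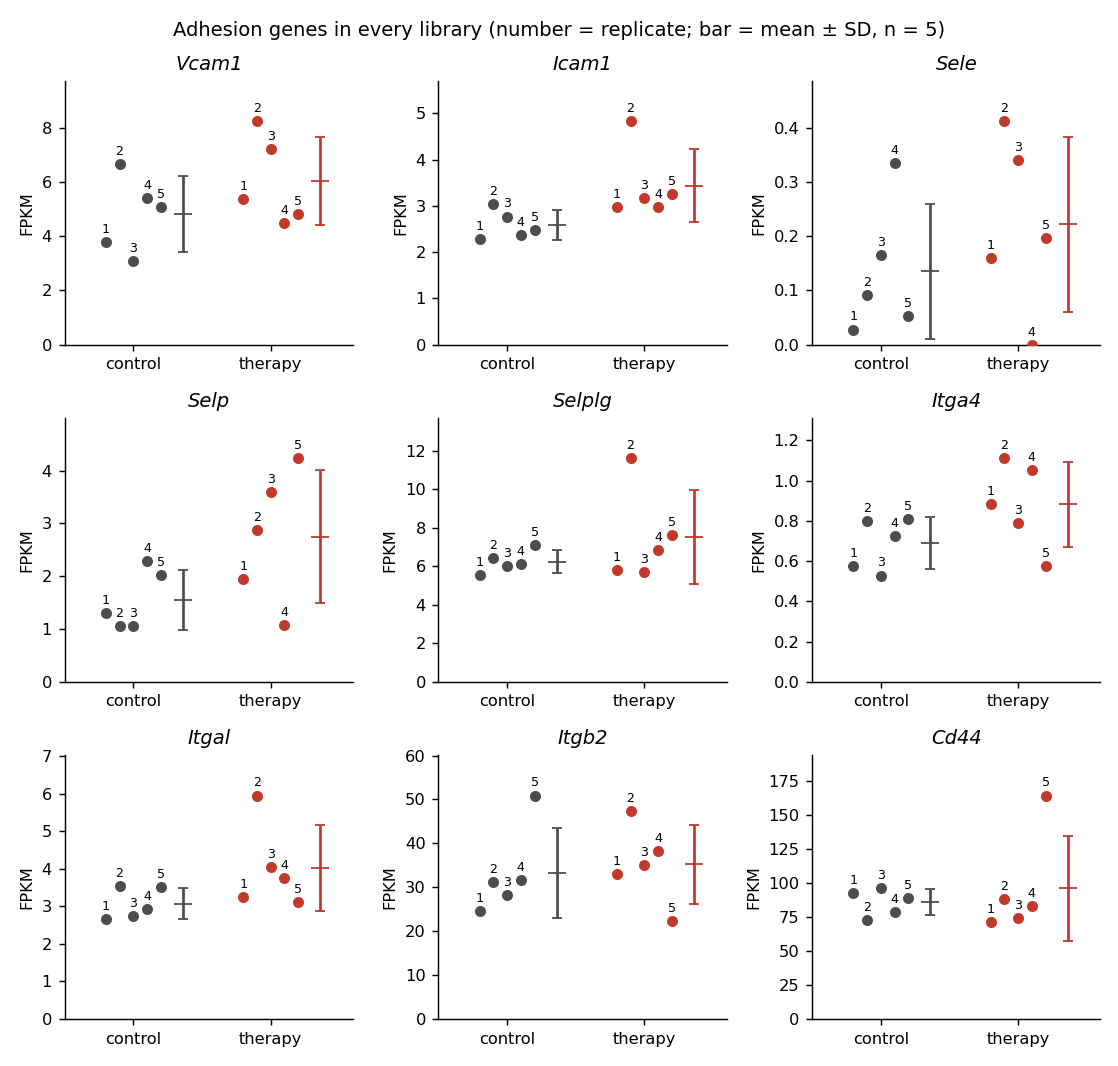
Level of each adhesion gene in every library. The y axis is FPKM from 0 on its own scale for each gene, points are single libraries numbered by replicate, and the bar beside each group is the mean ± SD (n = 5). The therapy 2 library is the highest for Vcam1, Icam1, Sele, Selplg, Itga4 and Itgal, and control and therapy points overlap for every gene.

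Between the groups, every one of the 9 genes had the higher mean of log2(FPKM + 1) in therapy, and none passed the test. In limma, 0 of the 7 genes tested had an adjusted p under 0.05, and neither had any other gene (0% of 12802). At an unadjusted p under 0.05 limma gave 323 genes, and 1 of the 7 members, Icam1, was among those higher in therapy, which made up 0.797% of all genes tested; 0 members were among the lower ones, 1.73% of all genes. In edgeR on the estimated counts, 0 of 9 members and 0% of 18668 genes passed, with 546 genes at an unadjusted p under 0.05. Members higher in therapy at that level in edgeR were Icam1, Selp and Itgal, 3 of 9 against 1.9% of all genes tested. By DESeq2, 6 genes passed, 0.0227% of the 26426 with an adjusted p, and 0 of 9 members. The exact permutation test gave an unadjusted p under 0.05 with a higher therapy mean for 1 of 9 members, Icam1, and for 1.25% of the 33285 genes with any FPKM above 0.

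The direction alone was shared more widely than the tests. A higher therapy mean was seen in 7 of 7 members in the main fit against 46.2% of its genes, and in 9 of 9 against 51.6% of the 33285 genes. These genes are not independent of each other, since 6 of the 9 were highest in the same library, therapy 2. The median difference was 0.28 log2 units over the 7 members and 0.20 over all 9, beside -0.012 over all genes tested. In no member did every therapy library exceed every control library, a pattern held by 0.133% of the genes tested.

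**Figure D2:**
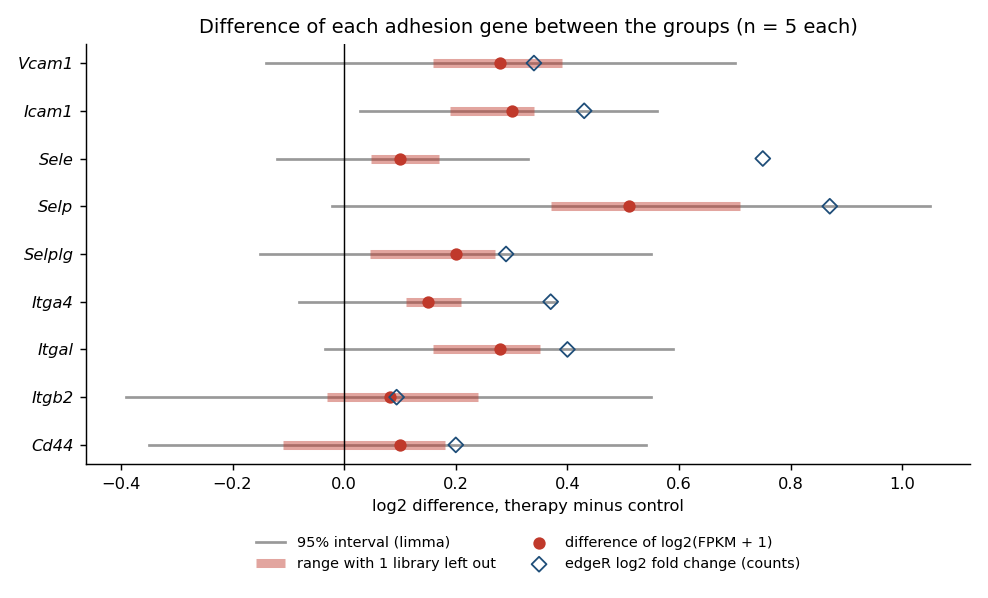
Difference of each adhesion gene between therapy and control, in log2 units, with n = 5 libraries each. Filled points are differences of mean log2(FPKM + 1), grey lines their 95% intervals from limma (for Sele and Itga4 from the fit without the filter on low values), red bands the range when 1 library is left out, and open diamonds edgeR's log2 fold changes. All 9 points lie to the right of 0, the interval of Icam1 alone stays above 0, and the bands of Itgb2 and Cd44 cross it.

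Selp encodes P-selectin, which endothelial cells and platelets store and move to the surface within minutes of activation. It lies on chromosome 1 (ENSMUSG00000026580). Its level was 1.30, 1.06, 1.06, 2.28 and 2.02 FPKM in control libraries 1 to 5, and 1.95, 2.88, 3.60, 1.08 and 4.23 FPKM in therapy libraries 1 to 5. Therapy libraries 2, 3 and 5 were above every control library, and therapy 4 was as low as the lowest controls. The means were 1.54 ± 0.568 and 2.75 ± 1.26 FPKM (SD, n = 5), the largest ratio of means among the 9 genes at 1.78. On the log2(FPKM + 1) scale the difference was 0.51 ± 0.24 (SE, limma), with a 95% interval of -0.021 to 1.05 and an adjusted p of 0.997. The exact permutation test gave p = 0.119, two-sided. Leaving out therapy 5 lowered the difference to 0.37, and leaving out therapy 4 raised it to 0.71. Platelets are another source of Selp RNA. The platelet genes Pf4 and Itga2b had means of 24.1 and 0.530 FPKM in control and 19.5 and 0.558 in therapy, and the 9 platelet genes summed to 15.4 to 42.6 FPKM in control and 8.97 to 28.7 in therapy. Their part in the level of Selp was not tested.

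Sele encodes E-selectin, which resting endothelium hardly makes and which cytokines induce. It lies near Selp on chromosome 1 (ENSMUSG00000026582). Sele was barely detected, at 0.0279, 0.0907, 0.166, 0.335 and 0.0534 FPKM in control libraries 1 to 5, and at 0.160, 0.412, 0.340, 0 and 0.196 in therapy libraries 1 to 5. The highest estimated count was 84, in therapy 2, and the gene was listed at 0 in therapy 4. The values of both groups covered nearly the same range, and 2 therapy libraries were above all controls. The means of 0.135 ± 0.124 and 0.222 ± 0.161 FPKM (SD, n = 5) differed by 0.10 in log2(FPKM + 1), with p = 0.373 in the exact permutation test. A pseudocount of 1 compresses differences at this level, and edgeR on the counts gave a log2 fold change of 0.75 (unadjusted p = 0.418). Without therapy 2 the difference was 0.048, and without therapy 4 it was 0.17.

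Icam1 encodes ICAM-1, the counter-receptor of LFA-1 on endothelium, antigen-presenting cells and many tumor cells. It lies on chromosome 9 (ENSMUSG00000037405). Icam1 was at 2.28, 3.05, 2.77, 2.37 and 2.48 FPKM in control libraries 1 to 5, and at 2.98, 4.83, 3.16, 2.97 and 3.26 in therapy libraries 1 to 5. Of all 9 genes it came nearest to a separation of the groups: 3 therapy libraries were above every control, and 4 controls were below every therapy library, the exception being control 2. The means were 2.59 ± 0.318 and 3.44 ± 0.788 FPKM (SD, n = 5). The difference of 0.30 ± 0.12 (SE) in log2(FPKM + 1) had an interval of 0.029 to 0.56 and an unadjusted p of 0.0328 in limma, but an adjusted p of 0.997 over all genes. The exact permutation test gave p = 0.0238, where the smallest p that 5 against 5 allows is 0.00794, and an adjusted p of 1. Therapy 2 carried a good part of the difference, which was 0.19 without it. The summed T cell genes, highest in the same library, were at 7.04 to 15.7 FPKM in control and 10.4 to 33.4 in therapy, and their part in the level of Icam1 was not tested.

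Vcam1 encodes VCAM-1, the ligand of α4 integrins, and lies on chromosome 3 (ENSMUSG00000027962). Vcam1 was at 3.78, 6.68, 3.09, 5.43 and 5.09 FPKM in control libraries 1 to 5, and at 5.39, 8.25, 7.22, 4.48 and 4.83 in therapy libraries 1 to 5. Therapy 2 and therapy 3 were above all controls, and the other 3 therapy libraries lay inside the control range. The means were 4.82 ± 1.41 and 6.03 ± 1.63 FPKM (SD, n = 5). The difference was 0.28 ± 0.19 (SE) in log2(FPKM + 1), with an interval of -0.14 to 0.70, an adjusted p of 0.997 in limma and p = 0.23 in the exact permutation test. It was 0.16 without control 3 and 0.39 without control 2.

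NF-kappaB binding sites near the start are known features of cytokine-induced adhesion genes, so the promoters of the induced endothelial members are shown. RefSeq promoter windows of GRCm38.p6, from 250 bases before to 50 bases after the start, were at hand for 5 of the 9 genes: Sele, Selp, Icam1, Itga4 and Cd44. They were searched on both strands for GGNNNTTCC, a loose form of a κB site chosen after the windows had been read, and matches are in capitals. The windows are chr9:21015690-21015989 for Icam1, chr1:164047984-164048283 for Sele and chr1:164115014-164115313 for Selp, all on the plus strand.
Icam1: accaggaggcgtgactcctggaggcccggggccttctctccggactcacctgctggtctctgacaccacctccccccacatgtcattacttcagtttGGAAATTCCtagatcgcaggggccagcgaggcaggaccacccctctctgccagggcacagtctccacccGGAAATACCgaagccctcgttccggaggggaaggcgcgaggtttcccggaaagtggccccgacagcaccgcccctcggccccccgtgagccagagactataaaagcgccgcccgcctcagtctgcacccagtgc
Sele: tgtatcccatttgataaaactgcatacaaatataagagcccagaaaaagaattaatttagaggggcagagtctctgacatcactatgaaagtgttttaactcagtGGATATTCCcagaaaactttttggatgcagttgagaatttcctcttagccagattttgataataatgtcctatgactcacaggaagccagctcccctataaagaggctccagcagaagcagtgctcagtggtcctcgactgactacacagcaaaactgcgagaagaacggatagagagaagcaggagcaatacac
Selp: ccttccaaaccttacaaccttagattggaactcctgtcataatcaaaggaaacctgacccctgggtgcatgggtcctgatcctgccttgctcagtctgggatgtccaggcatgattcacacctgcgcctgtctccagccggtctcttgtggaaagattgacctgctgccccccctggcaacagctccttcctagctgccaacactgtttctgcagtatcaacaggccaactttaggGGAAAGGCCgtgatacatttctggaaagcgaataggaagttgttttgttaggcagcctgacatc

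Icam1 had matches at 2 places. The one from -153 to -145, counted from the start, read as a match on both strands, and the one from -84 to -76 matched on the minus strand. Sele had 1 match from -145 to -137 on the plus strand, and Selp had 1 from -14 to -6 on the minus strand. Itga4 and Cd44 had none in this window. The same letters occurred in 18.5% of 32851 promoter windows of this length, so a match is common. The stricter NF-kappaB consensus, present in 8.46% of windows, matched none of the 5. These are matches of letters, and no binding was measured.

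Selplg encodes PSGL-1, the P-selectin ligand carried by nearly all leukocytes, and lies on chromosome 5 (ENSMUSG00000048163). Selplg was at 5.52, 6.45, 6.02, 6.12 and 7.10 FPKM in control libraries 1 to 5, and at 5.81, 11.6, 5.72, 6.85 and 7.62 in therapy libraries 1 to 5. Control libraries were tighter for this gene than for any other member, with a coefficient of variation of 9.4%, and in therapy it was 32.1%. Therapy 2 alone was far above the rest. The means were 6.24 ± 0.587 and 7.52 ± 2.42 FPKM (SD, n = 5), a difference of 0.20 ± 0.16 (SE) in log2(FPKM + 1) with an interval of -0.15 to 0.55 and an adjusted p of 0.997 in limma (exact permutation p = 0.31). Without therapy 2 the difference was 0.047.

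Itgal encodes the αL chain of LFA-1, which lymphocytes and other leukocytes use to bind ICAM-1, and lies on chromosome 7 (ENSMUSG00000030830). Itgal was at 2.65, 3.54, 2.75, 2.92 and 3.51 FPKM in control libraries 1 to 5, and at 3.24, 5.95, 4.05, 3.75 and 3.11 in therapy libraries 1 to 5. All 5 therapy libraries were above the control median of 2.92, and 3 were above every control. The means were 3.07 ± 0.422 and 4.02 ± 1.14 FPKM (SD, n = 5). The difference was 0.28 ± 0.14 (SE) in log2(FPKM + 1), with an interval of -0.034 to 0.59, an adjusted p of 0.997 in limma and p = 0.0794 in the exact permutation test. It was 0.16 without therapy 2.

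Itgb2 encodes the β2 chain shared by LFA-1 and the myeloid integrins Mac-1 and p150,95, and lies on chromosome 10 (ENSMUSG00000000290). Itgb2 was at 24.6, 31.3, 28.3, 31.6 and 50.9 FPKM in control libraries 1 to 5, and at 33.1, 47.3, 35.0, 38.3 and 22.4 in therapy libraries 1 to 5. The highest library was control 5 and the lowest was therapy 5, and 0 therapy libraries were above all controls. The means of 33.3 ± 10.2 and 35.2 ± 9.0 FPKM (SD, n = 5) differed by 0.082 ± 0.21 (SE) in log2(FPKM + 1), with an interval of -0.39 to 0.55 and an adjusted p of 0.999 in limma (exact permutation p = 0.738). The sign depended on single libraries: the difference was -0.031 without therapy 2, -0.013 without control 1 and 0.24 without control 5.

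Itga4 encodes the α4 chain of VLA-4 on lymphocytes and monocytes, and lies on chromosome 2 (ENSMUSG00000027009). Itga4 was low, at 0.577, 0.800, 0.528, 0.723 and 0.810 FPKM in control libraries 1 to 5, and at 0.883, 1.11, 0.791, 1.05 and 0.577 in therapy libraries 1 to 5. Therapy libraries 1, 2 and 4 were above every control, and therapy 5 was among the lowest. The means were 0.688 ± 0.129 and 0.881 ± 0.212 FPKM (SD, n = 5), 0.15 apart in log2(FPKM + 1) with p = 0.135 in the exact permutation test. Leaving out therapy 5 gave 0.21 and leaving out therapy 2 gave 0.11. The table cannot say whether any of this RNA is tied to the macrophage membrane of the carrier.

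Cd44 encodes the hyaluronan receptor CD44, made by activated T cells, by most other leukocytes and by carcinoma cells including many breast tumor lines. It lies on chromosome 2 (ENSMUSG00000005087). Cd44 was at 92.4, 72.7, 96.1, 78.5 and 89.0 FPKM in control libraries 1 to 5, and at 71.2, 88.1, 74.1, 82.8 and 164 in therapy libraries 1 to 5. Only therapy 5 was above the controls, and the other 4 therapy libraries lay below the control median of 89.0. The means were 85.8 ± 9.81 and 96.0 ± 38.5 FPKM (SD, n = 5), 0.10 ± 0.20 (SE) apart in log2(FPKM + 1), with an interval of -0.35 to 0.54, an adjusted p of 0.997 in limma and p = 0.849 in the exact permutation test. Without therapy 5 the difference was -0.11. With therapy 2 and therapy 5 both left out, a choice made after seeing the data, it was -0.17, that of Icam1 0.17, of Selp 0.29 and of Itgal 0.20.

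Levels were also set beside a partner chain or a gene of the cells in which the member is best known, as log2 ratios of FPKM + 0.1 within each library. These ratios are descriptions, with no test. Relative to its partner Itgb2, Itgal was at -3.36 ± 0.28 in control and -3.10 ± 0.22 in therapy (SD, n = 5), and 3 therapy libraries were above all controls. Relative to Itgam, the αM chain that competes for the same β2 chain in myeloid cells, Itgal was at -2.29 ± 0.26 and -1.94 ± 0.23, with 2 therapy libraries above all controls. Itga4 relative to Itgb1, its partner, was at -8.34 ± 0.21 in control and -7.96 ± 0.35 in therapy, and 4 of 5 therapy libraries were above all controls. Itgb1 was about as abundant in both groups, at 253 ± 18.9 and 240 ± 25.3 FPKM, so its RNA far exceeded that of Itga4 in every library.

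Relative to Ptprc, which encodes CD45 and marks leukocytes, most of the leukocyte members showed little or no excess in therapy. Ptprc itself was at 3.79 ± 0.697 FPKM in control and 4.61 ± 1.23 in therapy (limma adjusted p = 0.997). The ratio of Selplg to Ptprc was 0.72 ± 0.15 and 0.68 ± 0.091, a difference of -0.038, with all therapy libraries inside the control range. The ratio of Itgb2 to Ptprc differed by -0.17, that of Cd44 by -0.16 and that of Itga4 by 0.046. For Itgal the ratio was higher by 0.090, with 4 therapy libraries above all controls and 1, therapy 5, below all of them. When log2(FPKM + 1) of all genes was taken relative to Ptprc, the differences of Selplg, Itga4, Sele, Itgb2 and Cd44 turned negative, and those of the other 4 shrank, to 0.066 for Vcam1, 0.082 for Icam1, 0.067 for Itgal and 0.30 for Selp. By construction every gene loses the 0.21 by which Ptprc itself was higher on that scale. Sele and Itga4, whose ratios of mean FPKM were 1.65 and 1.28, are low genes whose differences a pseudocount of 1 compresses. Their negative signs on that scale therefore do not show a fall relative to Ptprc.

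Cdh5 encodes VE-cadherin, which joins endothelial cells. Its level was 10.6 ± 1.16 FPKM in control and 11.8 ± 3.76 in therapy (limma adjusted p = 0.997), and 14 endothelial genes summed to 75.1 to 93.1 FPKM in control and 58.9 to 123 in therapy, a wider range. The ratio of Selp to Cdh5 was -2.77 ± 0.43 in control and -2.14 ± 0.76 in therapy, with 2 therapy libraries above all controls. Icam1 relative to Cdh5 was at -2.0 ± 0.24 and -1.71 ± 0.41, with 2 therapy libraries above and 1 below all controls. For Vcam1 the ratio was -1.17 ± 0.49 and -0.93 ± 0.32, and for Sele -5.65 ± 0.66 and -5.34 ± 0.65, with 0 therapy libraries above all controls in either.

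**Figure D3:**
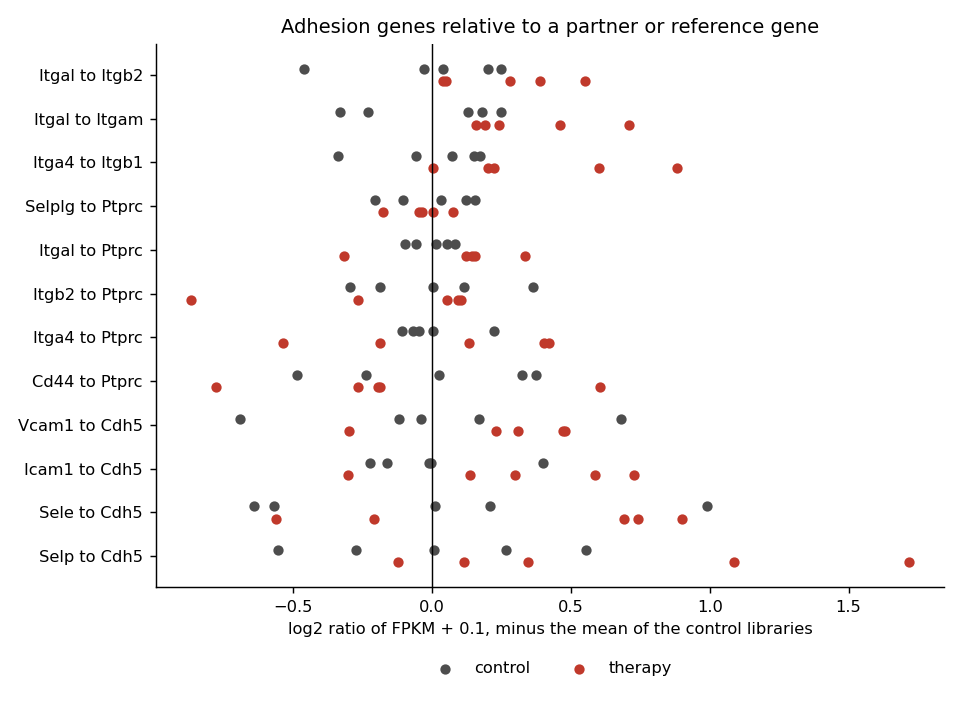
Log2 ratios of adhesion genes to a partner or reference gene in each library, with FPKM + 0.1 and with the mean of the control libraries set to 0. Grey points are control libraries and red points therapy libraries. Itga4 to Itgb1 has 4 therapy libraries above all controls, and Selplg to Ptprc has all of them inside the control range.

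Across the 10 libraries, the members were compared with the mean log2(FPKM + 1) of 5 marker lists, for leukocytes, T cells, macrophages, endothelial cells and epithelial tumor cells, with no member in any list. Of 45 relations, 1 passed after adjustment. Icam1 followed the T cell score, a mean over 10 genes such as Cd3e and Trac, with Pearson's r = 0.94 (permutation p = 5e-05, adjusted p = 0.00225) and Spearman's rho = 0.94 (permutation p = 0.00021, adjusted p = 0.00945). With the group means removed r was 0.90 (permutation p = 0.0018, adjusted p = 0.081). The 2 libraries farthest from the median of the score were therapy 2 and therapy 5, and without them r was 0.87 (permutation p = 0.011, adjusted p = 0.204). The size of r was thus similar in all 3 forms, but only the first passed over the 45 relations. The form with group means removed used all 10 libraries, permuted within each group. For the form without the 2 farthest libraries, the part of the smaller number of libraries was not tested. The T cell score was itself higher on the mean in therapy, at 1.21 against 0.81, with 0 genes called of the 4 that entered limma. All 10 of its genes had the higher mean in therapy, against 51.6% of the 33285 genes, and they are not independent of each other. Only 2 therapy libraries had summed T cell genes above the control maximum of 15.7 FPKM, therapy 2 with 33.4 and therapy 5 with 20.4.

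The other relations did not pass. Selplg, Itgal, Vcam1 and Icam1 had r of 0.78, 0.77, 0.76 and 0.75 with the leukocyte score. With control 2 and therapy 2 left out, these values were 0.83, 0.58, 0.53 and 0.48. Selplg and Itgal had r of 0.78 and 0.74 with the T cell score. Without therapy 2 and therapy 5, r of Selplg with the T cell score was -0.25. Sele had r of 0.69 with the endothelial score and 0.63 with the T cell score. Selp had 0.41 with the endothelial score and its highest, 0.58, with the T cell score. Without therapy 2 and therapy 4 the endothelial values of Sele and Selp were 0.35 and 0.11. Without therapy 2 and therapy 5 their T cell values were 0.41 and 0.26. Vcam1 had r of 0.55 with the endothelial score, below its value with the leukocyte score. Itgb2 had r of 0.11 with the T cell score and -0.10 with the macrophage score, although macrophages carry it. Cd44 had r of 0.26 with the epithelial score, and 0.67 without the 2 libraries farthest from the median of that score. With the T cell score its r was 0.27, but rho was -0.21 and r was -0.84 without therapy 2 and therapy 5, so the sign turned. All points share library, scaling and group, so these values are descriptions.

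**Figure D4:**
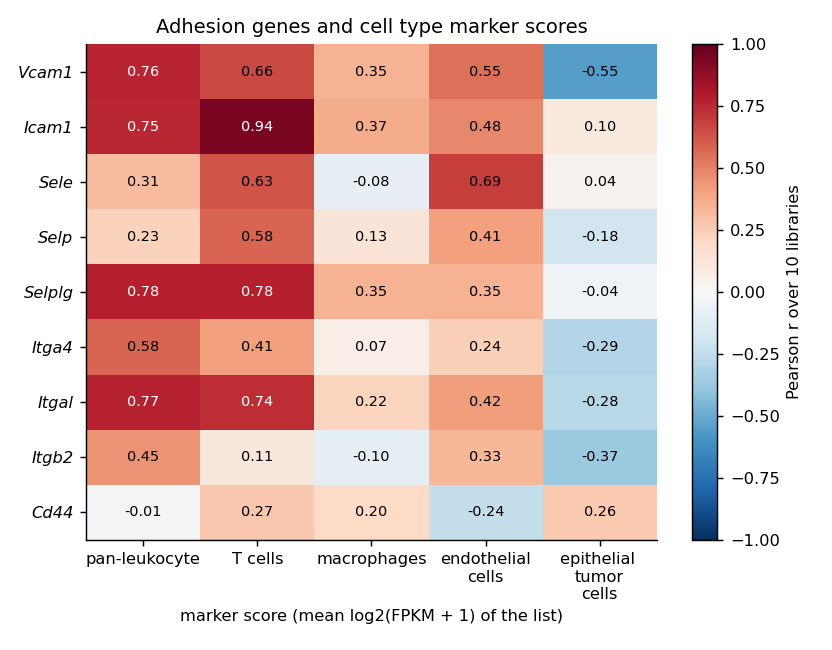
Pearson's r over 10 libraries between each adhesion gene (rows) and the marker score of each cell type (columns), both as log2(FPKM + 1). Colours run from blue for -1 to red for 1. Icam1 with T cells is the highest value, 0.94, while Cd44 and Itgb2 have no value above 0.45.

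**Figure D5:**
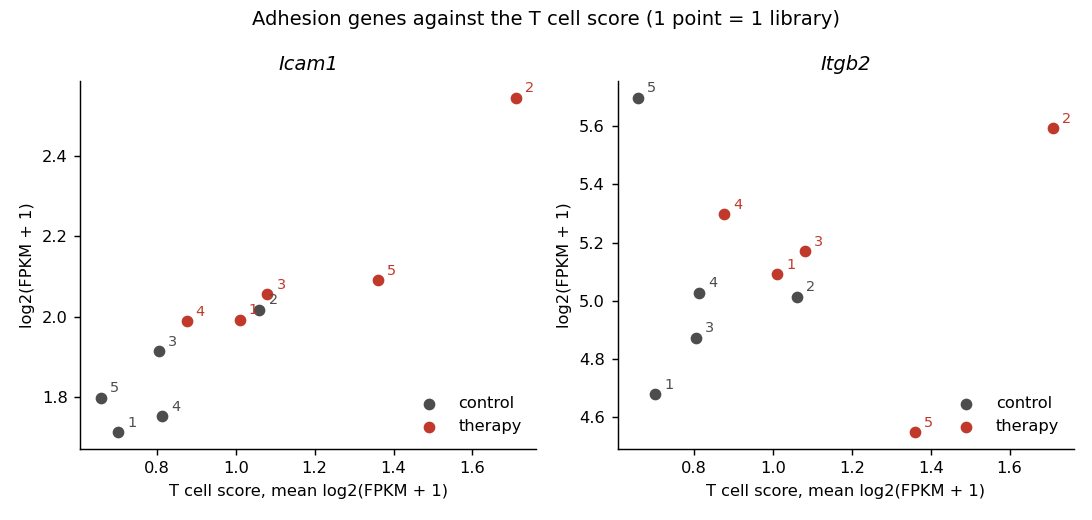
Icam1 and Itgb2 against the T cell score in the 10 libraries, all axes in log2(FPKM + 1) and not starting at 0. Points are libraries, grey for control and red for therapy, with replicate numbers. Icam1 lies along a line with r = 0.94 and with therapy 2 at its far end, and Itgb2 is scattered with r = 0.11.

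Members also varied together. The highest pairwise r over 10 libraries was 0.87, between Icam1 and Itgal, the counter-receptor pair, and it was 0.81 with the group means removed. Icam1 and Selplg had 0.82, Itga4 and Itgal 0.81, Vcam1 and Itgal 0.80, Selplg and Itgal 0.80, and Itga4 and Itgb2 0.78. The LFA-1 chains Itgal and Itgb2 had 0.70, and Sele and Selp 0.68. Vcam1 and Itga4, the pair named for the carrier's coating, had 0.66, and Itga4 and Cd44 had -0.49. With the group means removed, Itgal and Itgb2 had 0.76, Sele and Selp 0.64, Vcam1 and Itga4 0.57, and Itga4 and Cd44 -0.66. Vcam1, Icam1, Sele, Selplg, Itga4 and Itgal were all highest in therapy 2, and removing group means does not remove that library. Pairwise values without therapy 2 were not computed, so its part in these values was not tested. Among the 12802 genes with a mean of at least 1 FPKM, those with the highest r to Icam1 were Cxcr6, a chemokine receptor, with 0.95, Cd8a with 0.95 and Lck with 0.94. Without therapy 2 these values were 0.87, 0.82 and 0.88. Lck is itself a gene of the T cell score, so its value is not separate from the relation of Icam1 to that score. Nearest to Itgal were Hcls1 with 0.98, Pik3ap1 with 0.95 and Ccdc88b with 0.94. Nearest to Itga4 were Arhgef6 with 0.95, Ikzf1 with 0.94 and Irf5 with 0.94. Nearest to Selplg were Sema4a with 0.95, Ptprc with 0.93 and Dennd1c with 0.92, of which the last dropped to 0.52 without therapy 2. Ptprc is itself a gene of the leukocyte score.

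Vcam1, Selp, Sele, Itgb2 and Cd44 had other neighbours. Nearest to Vcam1 were Lactb with 0.94, Tifa with 0.93 and Abi3 with 0.91, to Selp Vezf1 with 0.93, Nab2 with 0.92 and Nlgn2 with 0.92, and to Sele Gm30025 with 0.90, Klhl17 with 0.85 and Hspb1 with 0.84. Nearest to Itgb2 were Cbx3-ps7 with 0.93, Arhgap31 with 0.90 and Cers6 with 0.90. Nearest to Cd44 were Ggct with 0.99, Scd2 with 0.96 and Cobll1 with 0.96, at 0.95, 0.81 and 0.82 without therapy 5, where Cd44 was highest. With 10 libraries and so many genes searched, high values are to be had for any gene, and no p is given.

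The wider adhesion machinery was examined in 6 lists of 106 genes in all, of which 78 entered limma and 0 passed. At an unadjusted p under 0.05 limma gave 3, all higher in therapy: Podxl, a sialomucin that can carry selectin ligands, Vav1, an exchange factor of hematopoietic cells that acts in integrin activation, and Ltb, lymphotoxin β. Podxl was at 15.6 ± 1.36 FPKM in control and 21.4 ± 6.76 in therapy, Vav1 at 4.19 ± 0.680 and 5.50 ± 1.17, and Ltb at 4.35 ± 1.11 and 6.22 ± 1.95 (SD, n = 5). All genes tested gave 0.797% in that direction. In all, 57 of the 78 had the higher mean in therapy, beside 46.2% of all genes. In edgeR, 0 of 100 genes passed and 10 had an unadjusted p under 0.05, beside 546 of 18668 over all genes.

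By list, the mean was higher in therapy for 9 of 14 genes of the selectin ligand machinery (median difference 0.067 log2 units), for 9 of 12 other integrin chains (0.12), for 8 of 9 other immunoglobulin-family and junction molecules (0.078) and for 13 of 16 genes of integrin activation (0.13). It was higher for 12 of 16 cytokine and NF-kappaB genes (0.058) and for 6 of 11 ligands of CD44 and of the integrins (0.00023), beside a median of -0.012 over all genes. Itga5, the α5 chain that binds fibronectin, was at 22.3 ± 4.06 FPKM in control and 34.5 ± 14.1 in therapy, and Cd24a, a ligand of P-selectin on leukocytes and carcinoma cells, at 59.1 ± 11.2 and 91.9 ± 35.9 (SD, n = 5; limma adjusted p = 0.997 for both). The ligands were abundant in both groups, with the CD44 and integrin ligand osteopontin (Spp1) at 2030 ± 1120 and 1930 ± 795 FPKM and fibronectin (Fn1) at 276 ± 17.0 and 279 ± 91.5. Has2, which makes hyaluronan, was at 25.2 ± 5.65 and 33.3 ± 8.92 FPKM (limma adjusted p = 0.997). Il1b, a cytokine that induces the endothelial members, ranged from 29.6 to 66.6 FPKM in control and from 10.7 to 164 in therapy, and Nfkbia, an NF-kappaB target, from 47.5 to 96.0 and from 41.5 to 155.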

How the data were processed

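Tumor RNA was measured by RNA sequencing in 10 libraries, 5 labelled control and 5 labelled therapy. Per the methods, the reads went through FastQC, HISAT2 and StringTie, in that order, and cutadapt 1.9 and GRCm38 are named in the submitters' processing notes. The methods name an Ensembl release instead, so no gene coordinates are given beyond the chromosome. They also differ on the sequencer. The authors deposited FPKM values and estimated counts for each gene in 1 table. The sources used here do not state the remaining versions or the way the estimated counts were made. More genes had an estimated count of 4 than of 3 (a median of 1192 against 593 genes in control). A count may thus differ from a read, and no counting intervals were computed. All value columns were used.

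FPKM depends on the total of each library and on the length assigned to each gene, so a change in a few abundant genes can shift all others. From the deposited FPKM, log2(FPKM + 1) was fitted in R 4.3.3 by limma 3.58.1, using a variance trend, for 12802 genes with a mean of at least 1, with Benjamini-Hochberg adjustment and a threshold of 0.05. The 9 genes were also tested by a two-sided exact permutation test over 252 assignments, adjusted over 33285 genes. The deposited estimated counts, stored as whole numbers with any fraction dropped, were tested with edgeR 4.0.16 (quasi-likelihood, TMM) and DESeq2 1.42.0. Correlations used 100000 permutations. Differences are therapy minus control, and a pseudocount of 1 understates them for low genes. The scripts were tested on simulated data. Alternatives covered pseudocount, filters, scaling, weights, a replicate block and each library left out. Members, lists and tests were chosen with earlier results of these data known. Named besides the 9 were the 3 genes nearest to each by r, the partner and reference genes of the ratios, and examples from the marker lists. From each list of the wider machinery came the 2 most abundant genes and the 2 with the largest differences, where a result turned on them. Itgax, Itgae and Itgb7 were named outside this rule.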

Additional observations from a re-analysis of the deposited data

Results flagged for a closer look

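In 18 groups of 5 libraries (each of the 9 genes in control and in therapy), 3 had a library whose gap to the nearest other one was large for the range of the group. Icam1 was at 4.83 FPKM in therapy 2, a gap of 0.845 of the range. Itgb2 was at 50.9 FPKM in control 5, a gap of 0.733. Cd44 was at 164 FPKM in therapy 5, a gap of 0.818. The limit used is one that chance passes in about 1 in 20 groups of independent values, and these groups share libraries. In therapy 2 the pan-leukocyte, endothelial, keratinocyte, T cell, NK cell and dendritic cell genes were also at their highest sums, and in therapy 5 the neutrophil and epithelial genes, and their part in these values was not tested.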

How the results depend on the processing

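Over 214 alternatives for the 9 genes, 202 kept the sign of the difference, 12 reversed it and none brought an adjusted p under 0.05, the smallest being 0.438. Genes called over the whole table rose from 0 to 6 with DESeq2 and to 1 relative to Ptprc. Relative to Ptprc, Sele was at -0.11, Selplg at -0.016, Itga4 at -0.062, Itgb2 at -0.13 and Cd44 at -0.12. In that setting every gene by construction loses the 0.21 by which Ptprc was higher, so members with a smaller difference had to reverse. The pseudocount also compresses the low genes Sele and Itga4. With array weights Itgb2 was at -0.054 and Cd44 at -0.10. With 1 library left out, differences ranged from -0.031 to 0.24 for Itgb2, which was at -0.013 without control 1, and from -0.11 to 0.18 for Cd44. With therapy 2 and therapy 5 both left out, chosen after seeing the data, Selplg was at -0.023 and Cd44 at -0.17. The causes of the reversals in the other settings were not tested. Without its 2 farthest libraries, and with group means removed, 0 of 45 relations with marker scores passed in place of 1, and Icam1 with the T cell score had r of 0.87 and 0.90. The filter at a mean of 5 FPKM left no value for the lower genes, and the array weights, the fit without trend and the limma block were not run for Sele and Itga4. The replicate numbers did not pair the libraries (r between same-numbered libraries -0.283, 0.0278, 0.00298, 0.533 and -0.0964), and a fit with the number as a replicate block called 0 genes in limma and 0 in edgeR, with 366 and 481 at an unadjusted p under 0.05. Precision was limited by 5 libraries in each group and, for Sele, by low counts.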

Other observations

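Among further integrin genes of leukocytes, Itgax, Itgae and Itgb7 had the higher mean of log2(FPKM + 1) in therapy, whereas Itgam differed by -0.0045. In edgeR, Itgax had an unadjusted p of 0.033 and Itgae of 0.0359, with an adjusted p of 0.985 for both. Of the 14 genes of the list of other integrin chains that edgeR tested, 3 were higher in therapy at an unadjusted p under 0.05. Over all genes tested by edgeR the share was 1.9%. Itgax, the αX chain of p150,95 and a dendritic cell marker, was at 3.52 ± 0.458 FPKM in control and 5.51 ± 2.80 in therapy (SD, n = 5, limma adjusted p = 0.997). Its two-sided exact permutation p was 0.0873. Itgae, the αE chain of tissue-resident T cells and dendritic cells, was at 0.479 ± 0.204 and 0.998 ± 0.675 FPKM, too low to enter limma, with a two-sided exact permutation p of 0.111. Itgb7, the partner of αE and a second partner of α4, was at 8.43 ± 3.03 and 10.2 ± 2.03 FPKM, far above Itga4 in both groups. The 5 NK cell genes summed to 1.09 to 2.78 FPKM in control and 2.26 to 6.31 in therapy, with 4 of 5 therapy libraries above all controls and 0 called of the 1 gene that entered limma. Of all the cell type lists this one had the most therapy sums above all controls, followed by dendritic cells with 3. The other NK cell genes had a mean below 1 FPKM, and the sum was highest in therapy 2. The share of all genes with such a pattern was not computed.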
